A study of Mus musculus with 36 samples.

Results

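Epididymal white adipose tissue (eWAT) of 3 CCL19-KI mice was compared with that of 3 wild-type (WT) mice, all fed a 40% high-fat diet (40% HFD) and carrying no ligature label. These are 6 of the 36 samples of the study, chosen by their genotype and treatment labels, with 1 mouse per RNA library. All were male C57BL/6 mice, and the diet was labelled as given for 10 weeks. The study's design text gives a start of feeding at 6 weeks of age, a ligature around a molar at 14 weeks and tissue collection 2 weeks later. The methods split each diet group into mice with and without ligature, whereas the design text and the account of RNA extraction mention only ligatured mice, so the 6 mice were placed by their sample labels. In CCL19-KI mice, the mouse *Ccl19* coding sequence sits at the *Adipoq* locus, the adiponectin gene that adipocytes use, and the endogenous *Adipoq* gene was left intact. The line came from founders made with CRISPR/Cas9 and was kept by mating homozygous CCL19-KI mice to each other, whereas WT mice were bred as a separate C57BL/6 colony, so CCL19-KI and WT mice were not littermates.

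CCL19 is a chemokine that binds the receptor CCR7 and draws dendritic cells and T cells towards lymphoid tissue. In obesity, visceral fat such as eWAT gains enlarged adipocytes, capillaries that feed them with fatty acids, and macrophages that clear lipid. Each value below is a normalized CPM, the reads of a gene scaled to library size by the authors, and each fold change compares CCL19-KI mice with WT mice on the scale log2(normalized CPM + 1), so it understates the change of low genes. A gene is called a DEG where its limma p, not adjusted for the number of genes, was at most 0.05 and its ratio at least 1.5 or at most 0.67. With 3 mice against 3, an exact permutation test of 1 gene cannot go below p = 0.1. In bulk tissue, fewer cells of a type and less RNA per cell cannot be told apart.

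The 6 libraries held 14693883 to 16797287 reads, and 3 reads stood for 0.182 to 0.227 normalized CPM. Markers of other organs were present in both genotypes, and those of hepatocytes were high. The kidney tubule list summed to 116 to 434 normalized CPM and the exocrine pancreas list to 11.6 to 43.4. The summed hepatocyte list was 53191, 18573 and 58750 normalized CPM in WT replicates 1, 2 and 3, and 15924, 64211 and 37895 in CCL19-KI replicates 1, 2 and 3, so the genotypes overlapped widely. The adipocyte list summed to 11304, 25822 and 27311 in WT mice and to 33563, 23715 and 21651 in CCL19-KI mice. WT replicate 1 had the lowest adipocyte sum and the highest erythroid sum, 11337 against 418 to 3103 in the other 5 libraries. WT replicate 2 had an epididymis sum of 1918, against 0.379 to 3.98 in the others. What these other tissues contributed to any difference below was not tested. Many calls below were lost without WT replicate 1, and the values without it stand beside them.

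**Figure D1:**
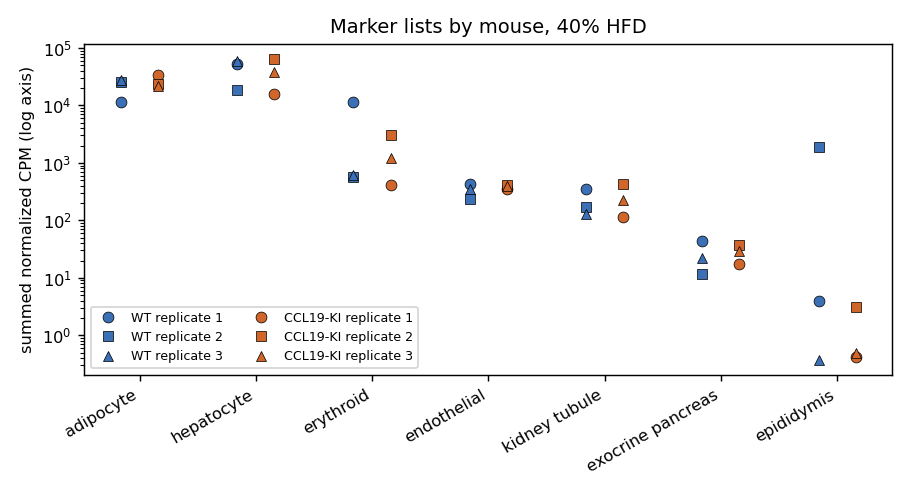
Summed normalized CPM (log axis) of 7 lists of marker genes in each of the 6 mice, with blue for WT, orange for CCL19-KI and the symbol for the replicate. WT replicate 1 (circle) has the lowest adipocyte sum, 11304, and the highest erythroid sum, 11337, and the hepatocyte sums of the genotypes overlap.

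The knocked-in gene separated the genotypes. *Ccl19* (ENSMUSG00000071005, chr4:42754525-42756577, minus strand, GRCm38) stood at 0.826, 2.96 and 2.96 normalized CPM in WT mice and at 27.5, 14.4 and 18.6 in CCL19-KI mice. The means were 2.25 ± 1.23 and 20.2 ± 6.69 (SD, n = 3 each), and the 3 CCL19-KI mice lay above the 3 WT mice. The log2 fold change was 2.74 with a standard error of 0.72 (unadjusted limma p = 0.00183, exact permutation p = 0.1). *Gm2564*, an annotated copy of *Ccl19* on the same chromosome, had no read in any WT mouse and 57.6, 30.8 and 43.8 normalized CPM in CCL19-KI mice, at least 205-fold above the mean level that 3 reads per WT library would give. The pseudogene *Ccl19-ps3* also had no read in WT mice, and it reached 12.0, 15.0 and 12.5 in CCL19-KI mice, at least 61.1-fold above that floor.

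The first bases of the *Ccl19* coding sequence, compared with the same stretch of these copies, show how little the counted sequences differ. The stretch of *Ccl19* is at chr4:42756271-42756330 on the minus strand of GRCm38, and the capitals mark the start codon and, in *Gm2564*, the base that differs from it.
Ccl19: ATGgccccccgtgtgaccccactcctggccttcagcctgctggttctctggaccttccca
Gm2564: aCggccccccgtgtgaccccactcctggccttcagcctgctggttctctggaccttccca
Ccl19-ps3: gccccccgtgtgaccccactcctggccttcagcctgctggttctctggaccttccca
Over the 327 coding bases of *Ccl19*, *Gm2564* differed at 1 base, T2C, with positions counted from 1 at the A of the start codon. *Ccl19-ps3*, which begins at position 4, had 0 differences over 324 bases. Of all stretches of 31 bases in the annotated *Ccl19* transcripts, 58.8% also occurred in *Gm2564*, and all of *Ccl19-ps3* occurred in *Ccl19*. The counting could therefore split reads among the copies, and their separate levels are uncertain.

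The rest of the CCL19 axis passed no criterion. *Ccr7*, the CCL19 receptor, was at 1.65, 1.54 and 0.682 normalized CPM in WT mice and at 0.851, 0.468 and 0.815 in CCL19-KI mice, with overlapping values (log2 fold change -0.40). *Ccl21a*, which encodes a second CCR7 ligand, ranged from 0.526 to 56.2 in WT mice and from 0.334 to 42.6 in CCL19-KI mice. *Ackr4*, an atypical receptor that scavenges both ligands, had a log2 fold change of -0.01. In all, 3 of the 7 tested genes of this list were higher, those 3 being *Ccl19* and its 2 copies, and 0 were lower. *Adipoq* itself was at 615, 2120 and 2013 in WT mice and at 1126, 647 and 584 in CCL19-KI mice. Its groups overlapped, and its log2 fold change of -0.87 (SE 0.58) did not pass.

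Several genes far from *Ccl19* separated the genotypes as sharply. *Hist1h4m* (chr13:21811746-21812147), a histone H4 gene, had no read in WT mice and 17.7, 17.3 and 18.8 normalized CPM in CCL19-KI mice, at least 83.2-fold above the floor of 3 reads. *Hist1h4n*, a second H4 gene nearby, went the other way, from 59.9, 37.4 and 40.5 in WT mice to 23.2, 15.0 and 20.4 in CCL19-KI mice (log2 fold change -1.18, SE 0.43). *Hist1h4n* was no DEG without WT replicate 1 (-0.98) or without CCL19-KI replicate 2 (-1.01). Of the stretches of 31 bases in *Hist1h4m*, 91.7% also occurred in *Hist1h4n*, so the split of reads between these H4 genes is uncertain.

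*Gm16867* and *Gm21451*, which overlap on opposite strands of chromosome 14, were at 0 in WT mice. Whether the counting used strand is not given in the sources used here, so their reads may not be told apart. In CCL19-KI mice *Gm16867* reached 8.02, 10.8 and 8.15 and *Gm21451* reached 3.95, 7.49 and 7.34, at least 41.8-fold and 29.1-fold above the floor. These are near copies of *Gm27177* and *Loxl2*, with which they shared 88.0% and 84.4% of their 31-base stretches. *Naip6*, one of the NAIP family of sensors for bacterial proteins, rose from 0, 0.257 and 0.0758 to 4.92, 5.35 and 5.33 (log2 fold change 2.49, SE 0.65).

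*Srp54a* and *Srp54b*, copies of the gene for the signal recognition particle subunit that binds signal peptides, were higher in every CCL19-KI mouse. *Srp54b* was at 25.8, 20.7 and 20.8 in WT mice and at 51.3, 39.2 and 47.5 in CCL19-KI mice (log2 fold change 1.00, SE 0.36), and 86.1% of its 31-base stretches also occurred in *Srp54a*. *Srp54a* rose from 41.5, 42.1 and 49.7 to 85.2, 78.9 and 64.9, with the smallest p of all genes tested (0.000213). *Naip6*, the 2 H4 genes, *Gm16867*, *Srp54a* and *Srp54b* belong to a list of 8 genes that had been picked on the ligatured mice of these data, and 5 of the 8 were higher and 1 lower here, where 1.76% and 0.431% of all genes tested were.

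**Figure D2:**
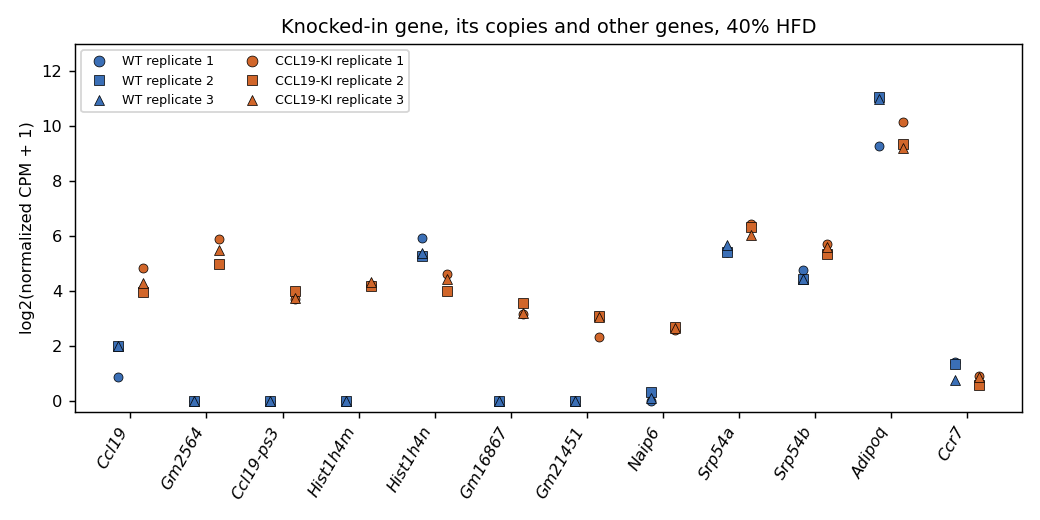
log2(normalized CPM + 1) of 12 genes in each mouse, with blue for WT, orange for CCL19-KI and the symbol for the replicate. *Gm2564*, *Ccl19-ps3*, *Hist1h4m*, *Gm16867* and *Gm21451* lie at 0 in all 3 WT mice and above 0 in all 3 CCL19-KI mice, whereas *Adipoq* and *Ccr7* overlap.

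These genes also showed that 2 libraries used in the wider fit went against their labels. The library labelled ND WT replicate 2, of a mouse on normal diet (ND) without ligature label, had 19.2 normalized CPM of *Ccl19*, 41.9 of *Gm2564* and 24.4 of *Hist1h4m*, where the other libraries labelled ND WT had 1.15 and 4.51, 0 and 0. The library labelled 60% HFD CCL19-KI replicate 3, also without ligature label, had 0.687 of *Ccl19* and 0 of both *Gm2564* and *Hist1h4m*, where the other libraries labelled 60% HFD CCL19-KI had at least 5.57, 11.6 and 24.3. Both libraries were high for the epididymis list (13196 and 12733 normalized CPM), as was 60% HFD CCL19-KI replicate 2 (10818), whose *Ccl19* level matched its label. The labels were kept. The 6 mice described here all matched theirs, but the fit took its spread from all 18 mice without ligature label, so results are also given for the 16 mice left without these libraries.

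Across the transcriptome, 371 of 16923 genes (2.19%) passed the DEG criteria, 298 higher (1.76%) and 73 lower (0.431%) in CCL19-KI mice. An adjusted p below 0.05 was reached by 0 genes (0%) with limma and by 0 with edgeR, whereas DESeq2 gave 37. Of these 37, 21 were not DEGs of limma. The smallest adjusted p of limma was 0.912, and 723 genes (4.27%) had an unadjusted p below 0.05. In the fit of 16 mice, 6 genes passed the adjusted threshold of limma, namely *Gm16867*, *Gm2564*, *Hist1h4m*, *Naip6*, *Gm21451* and *Ccl19* (adjusted p = 0.0373 for *Ccl19*), and 469 of 16451 genes were DEGs, 357 of them among the 371. All 3 CCL19-KI mice lay above all 3 WT mice in 1248 genes (7.37%) and below them in 1178 (6.96%). The median log2 fold change of all genes tested was -0.07. The calls below therefore rest on an unadjusted p of limma. Of the genes described below, DESeq2 gave an adjusted p below 0.05 to *Irf7* (adjusted p = 0.00971), *Spaar*, *Ccl28*, *Saa1*, *Saa2* and *Ltf*.

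The kinds of gene differed between the directions. Of 14795 protein-coding genes tested, 115 were higher and 64 lower. Of 587 gene models that the annotation still holds for experimental checking (its class TEC), 89 (15.2%) were higher and 0 lower. These models took 0.151%, 0.237% and 0.164% of reads in WT mice and 0.260%, 0.252% and 0.259% in CCL19-KI mice. The share was thus lowest in WT replicates 1 and 3, and the 3 CCL19-KI mice were close together above all WT mice. Of 385 pseudogenes, 48 were higher and 5 lower. Of the 298 higher genes, 115 were thus protein-coding, against 64 of the 73 lower genes.

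Among protein-coding genes, the list with the most members higher was that of endothelial cells, which line blood and lymph vessels. Of its 15 tested genes, 6 were higher, against 1.76% of all genes tested, and 0 were lower. In 9 all CCL19-KI mice lay above all WT mice, against 7.37% of all genes tested, and the median log2 fold change was 0.65, against -0.07. *Cldn5*, the tight junction protein of endothelium, rose from 3.91, 7.08 and 12.1 normalized CPM in WT mice to 22.5, 24.1 and 16.9 in CCL19-KI mice (log2 fold change 1.45, SE 0.44, unadjusted limma p = 0.00549, exact permutation p = 0.1). *Cdh5*, which encodes VE-cadherin of endothelial junctions, rose from 14.6, 15.0 and 26.8 to 42.8, 52.7 and 39.4 (log2 fold change 1.26, SE 0.52). The groups did not overlap for either gene.

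Of the receptors on the list, *Tek*, *Flt1* and *Robo4* passed. *Tek*, the receptor for angiopoietins, was at 12.5, 22.4 and 21.1 in WT mice and at 42.0, 22.7 and 28.3 in CCL19-KI mice, so that CCL19-KI replicate 2 barely exceeded WT replicate 2 (log2 fold change 0.70, SE 0.24). *Flt1*, a receptor for VEGF, had a log2 fold change of 1.06 (SE 0.48), and *Robo4*, a guidance receptor of endothelium, of 0.94 (SE 0.42). *Egfl7*, a secreted endothelial protein, passed with 0.65, although its groups overlapped. The pan-endothelial gene *Pecam1* was at 13.8, 16.5 and 25.6 in WT mice and at 36.6, 35.8 and 30.3 in CCL19-KI mice, which missed the threshold (log2 fold change 0.88, SE 0.42). The receptors *Kdr* and *Tie1* and the factor *Erg* did not pass (log2 fold changes of 0.34, 0.65 and 0.19).

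The genes known from lymphatic endothelium in this list did not pass. *Prox1*, which liver also expresses, was at 261, 25.9 and 67.9 normalized CPM in WT mice and at 26.4, 64.2 and 58.0 in CCL19-KI mice. *Flt4* had a log2 fold change of -0.62 (SE 0.61). These were the only members of the list with a negative value.

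Some DEGs outside the list are genes that capillary endothelium is known to express, and since they were taken from the higher DEGs they add no support to the list. Among the 12 largest rises, *Btnl9* rose from 2.78, 4.05 and 8.11 to 22.6, 20.6 and 13.9 (log2 fold change 1.81, SE 0.51), and *Meox2*, a homeobox gene of endothelium in fat and muscle, rose from 0.601, 1.61 and 2.20 to 6.74, 5.68 and 6.08 (log2 fold change 1.59, SE 0.38). Genes singled out after their values were seen included *Cd300lg*, a surface protein of capillaries, at 9.92, 13.6 and 22.0 in WT mice and 38.2, 39.1 and 32.7 in CCL19-KI mice. *Spaar* (log2 fold change 1.31), *Rbp7* (1.18), *Kank3* (0.83), *Itga1* (0.79), *Aplnr* (1.27), *Sema3g* (1.26), *Pdgfb* (0.90), *Sox17* (0.71), *Esm1* (0.80) and *Clec1a* (0.62) were chosen in the same way. In these genes WT replicate 1 had the lowest of the 6 values, except in *Esm1*, where WT replicate 3 had it.

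WT replicate 1 carried much of this difference. Without it, 1 of the 15 list genes was higher, *Cldn5*, and the median fell to 0.38. Without any other single mouse, 2 to 8 were higher. Over all genes tested, 230 were higher without WT replicate 1 and 237 to 389 without any other single mouse, beside 298 with every mouse kept. *Cldn5*, *Btnl9*, *Meox2*, *Cd300lg*, *Spaar*, *Rbp7*, *Kank3* and *Itga1* were DEGs whichever of the 6 mice was left out, whereas others were no DEG without WT replicate 1. Among these were *Cdh5* (log2 fold change 1.11 without it), *Flt1* (0.93), *Robo4* (0.77), *Egfl7* (0.53) and *Tek* (0.45) of the list. Outside the list they were *Sema3g* (1.17), *Aplnr* (1.03), *Pdgfb* (0.70), *Sox17* (0.55) and *Clec1a* (0.40). *Esm1* lost its call without WT replicate 3 (0.73) or CCL19-KI replicate 1 (0.72). Some of these genes lost it without other single mice too, as *Cdh5* and *Flt1* did without WT replicate 2, CCL19-KI replicate 1 or CCL19-KI replicate 2. In the fit of 16 mice, 7 of the 15 were higher, *Pecam1* being added.

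**Figure D3:**
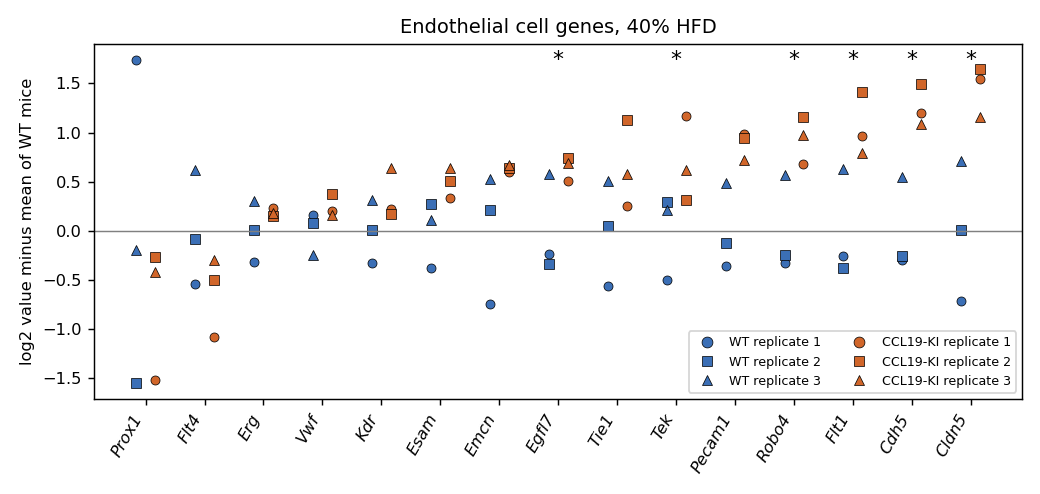
log2(normalized CPM + 1) of the 15 endothelial genes in each mouse minus the mean of the WT mice, ordered by fold change, with blue for WT, orange for CCL19-KI, the symbol for the replicate and an asterisk for genes that passed the DEG criteria. Orange points lie above all blue points in 9 genes, and WT replicate 1 (blue circle) is often the lowest.

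Capillaries in fat hand fatty acids to adipocytes through lipoprotein lipase, and both parts of that handover were higher. *Gpihbp1*, which holds the lipase on the capillary wall, rose from 8.11, 19.3 and 25.9 normalized CPM to 36.2, 38.7 and 37.6 (log2 fold change 1.17, SE 0.34). *Lpl*, the lipase made by adipocytes and macrophages, was at 1026, 3649 and 5150 in WT mice and at 7586, 6327 and 5333 in CCL19-KI mice (log2 fold change 1.24, SE 0.58). The groups did not overlap for either gene, but WT replicate 3 and CCL19-KI replicate 3 were close for *Lpl*. These were 2 of the 18 genes on fatty acid uptake and triglyceride synthesis, where 1.76% of all genes tested were higher. In this list 0 were lower and the median was 0.39, against -0.07 for all genes tested. With edgeR, DESeq2, a replicate block or no filter the list held 1 higher gene, *Gpihbp1*, and with all 36 mice it held 5.

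The fatty acid transporter *Cd36* was at 684, 2008 and 2451 in WT mice and at 3484, 2842 and 2345 in CCL19-KI mice, which overlapped (log2 fold change 0.93, SE 0.50). The chaperone *Fabp4* had a log2 fold change of 0.81 (SE 0.50). Without WT replicate 1 the list held 1 higher gene, *Gpihbp1* (log2 fold change 0.72), and its median was 0.12, and *Lpl* (0.55 without it) was also no DEG without any single CCL19-KI mouse (1.11 to 1.37) or in the fit of 16 mice.

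Fat expansion genes mark growing adipocytes. All 11 had a positive log2 fold change, against 41.5% of all genes tested, with a median of 0.69. Of these, 1 passed the criteria as higher, where 1.76% of all genes tested did. The list summed to 2193, 5960 and 7106 normalized CPM in WT mice and to 8224, 6248 and 6606 in CCL19-KI mice. The sums overlapped, and WT replicate 1 was far the lowest. *Sfrp5*, a secreted inhibitor of WNT signalling, was at 34.2, 45.6 and 133 in WT mice and at 244, 179 and 191 in CCL19-KI mice (log2 fold change 1.76, SE 0.81), and it was no DEG in the fit of 16 mice, without WT replicate 1 (1.37) or without any other mouse except WT replicate 3. *Mest* was at 112, 611 and 766 in WT mice and at 652, 552 and 614 in CCL19-KI mice, where WT replicate 1 alone stood apart.

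Of 13 adipokines tested, 0 passed in either direction, with a median of 0.13. *Lep*, which encodes leptin, was at 278, 714 and 1235 in WT mice and at 1397, 1565 and 1384 in CCL19-KI mice. Its groups did not overlap, but its log2 fold change of 1.21 had a standard error of 0.85 and did not pass. *Retn* and *Cfd*, which encode resistin and adipsin, had log2 fold changes of 0.45 and -0.19.

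The list with the most members lower was that of interferon-stimulated genes, which cells switch on in response to type I interferon through a DNA motif called the ISRE. Promoter sequences of RefSeq (GRCm38.p6) show it for 3 of the 5 members that were lower. The capitals mark matches to the motif, GAAA, any 2 bases and GAAA again, or to its reverse complement, TTTC, any 2 bases and TTTC, within 250 bases before the gene start, and in Isg15 3 matches overlap.
Isg15, chr4:156200863-156200908, minus strand: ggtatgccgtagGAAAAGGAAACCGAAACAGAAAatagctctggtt
Ifit1, chr19:34640773-34640825, plus strand: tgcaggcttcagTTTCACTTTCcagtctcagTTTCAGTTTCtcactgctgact
Ifit3, chr19:34583361-34583428, plus strand: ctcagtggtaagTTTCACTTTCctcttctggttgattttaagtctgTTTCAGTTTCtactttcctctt
Of 32851 promoters searched on both strands, 978 (2.98%) held the motif. Counted by gene, 415 of the 12040 genes tested with a promoter entry (3.45%) held it, as did 10 of the 14 list genes with an entry. The motif was held by 3 of the 4 lower list genes with an entry and by 7 of the 10 that were not lower, so its presence did not separate them. Of all 49 lower DEGs with a promoter entry 7 held it, and of the 45 outside the list 4 did. Of 91 higher DEGs 2 did.

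Of the 20 genes on this list, 5 were lower and 0 higher, where 0.431% of all genes tested were lower. In 8 of them every CCL19-KI mouse was below every WT mouse, against 6.96% of all genes tested, and the median log2 fold change was -0.46, against -0.07. *Irf7*, the factor that amplifies the interferon response, fell from 50.3, 28.6 and 28.9 normalized CPM in WT mice to 16.1, 16.7 and 16.5 in CCL19-KI mice (log2 fold change -1.03, SE 0.23, unadjusted limma p = 0.000431, exact permutation p = 0.1). The 3 CCL19-KI mice were nearly equal, and WT replicate 1 was the highest.

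*Ifit1* and *Ifit3*, whose proteins bind foreign RNA or help to do so, fell from 22.6, 15.3 and 13.6 to 7.96, 9.09 and 9.09 and from 23.2, 32.6 and 30.5 to 20.3, 16.2 and 18.0. The log2 fold changes were -0.87 (SE 0.30) and -0.63 (SE 0.24). For *Ifit3*, WT replicate 1 was the lowest of the WT mice. *Isg15*, a ubiquitin-like modifier, was at 7.29, 3.35 and 2.96 in WT mice and at 1.58, 2.34 and 2.45 in CCL19-KI mice (log2 fold change -0.75, SE 0.31). *Usp18*, the protease that removes it, had a log2 fold change of -0.71 (SE 0.28).

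Other members were not called. *Mx1*, an antiviral GTPase, had a log2 fold change of -0.34. *Gbp2* and *Ifit2* were at 0.02 and 0.19. *Iigp1* ranged from 63.0 to 489 in WT mice and from 72.7 to 207 in CCL19-KI mice.

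Some lower DEGs outside the list are known to respond to interferon. They were singled out because they were lower and add no support to the list. *Ifitm3*, which blocks virus entry, fell from 173, 147 and 151 to 85.2, 83.4 and 102 (log2 fold change -0.80, SE 0.24). *Zbp1*, *Oasl1*, *Rtp4*, *Irf9*, *Ifit3b*, *Irgm2* and *Ifi47* had log2 fold changes from -0.92 to -0.59, and the values of *Irf9*, *Irgm2* and *Ifi47* overlapped between genotypes. *Zbp1* and *Oasl1* were also among the 12 largest falls. Without WT replicate 1, *Zbp1* (-0.66), *Oasl1* (-0.50), *Irf9* (-0.36), *Irgm2* (-0.34) and *Ifi47* (-0.41) were no DEGs. *Rtp4* lost its call without CCL19-KI replicate 3 (-0.60), and *Ifit3b* without WT replicate 2 (-0.55), WT replicate 3 (-0.53) or CCL19-KI replicate 3 (-0.55).

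This group also depended on single mice. Without WT replicate 1, 2 of the 20 genes were lower, *Irf7* (log2 fold change -0.77) and *Ifit3*, with a median of -0.34. *Ifit1* was then at -0.67, *Usp18* at -0.53 and *Isg15* at -0.42. *Ifit3* in turn lost its call without WT replicate 2 (-0.53), WT replicate 3 (-0.58) or CCL19-KI replicate 2 (-0.55). Without CCL19-KI replicate 1 there were 3, without WT replicate 2 there were 8, and without each of the others 5. Over all genes tested, 73 were lower with every mouse kept and 528 of 16869 without WT replicate 2. Leaving out any other single mouse gave 53 to 168, so the count of 8 came with many more lower genes of all kinds. A pseudocount of 5 left 2. *Irf7* and *Ifitm3* were DEGs whichever mouse was left out, and the fit of 16 mice gave the same 5 genes.

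**Figure D4:**
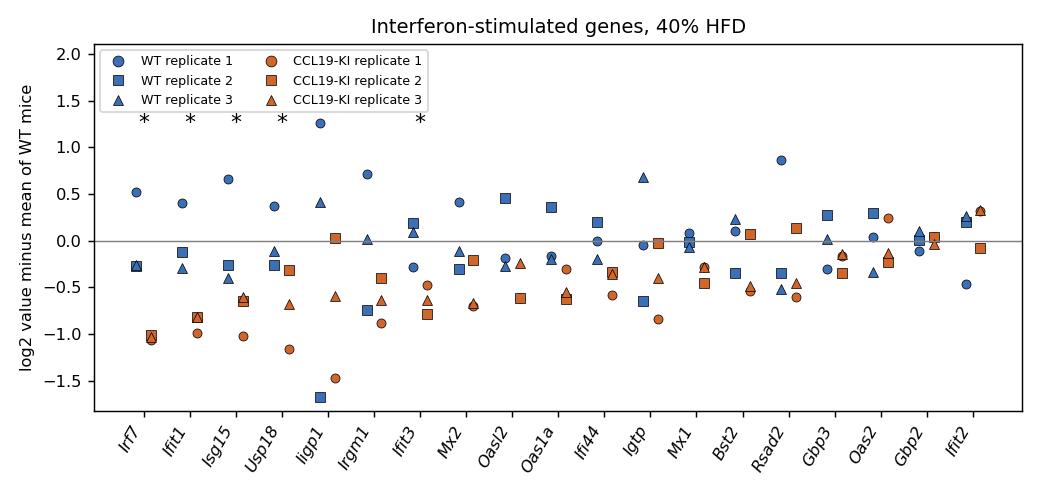
log2(normalized CPM + 1) of 19 of the 20 interferon-stimulated genes in each mouse minus the mean of the WT mice, ordered by fold change, with blue for WT, orange for CCL19-KI, the symbol for the replicate and an asterisk for genes that passed the DEG criteria. The 3 CCL19-KI mice lie below all WT mice in 8 genes, and WT replicate 1 (blue circle) is the highest for *Irf7*, *Ifit1* and *Isg15* but the lowest WT mouse for *Ifit3*.

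The largest falls by size were those of the acute phase genes *Saa2* and *Saa1*, which were highest in WT replicate 1. *Saa2*, a serum amyloid A gene that liver makes in inflammation, was at 344, 9.08 and 3.34 normalized CPM in WT mice and at 1.22, 1.27 and 1.00 in CCL19-KI mice (log2 fold change -3.52, SE 1.13). Without WT replicate 1 the value was -1.61, and the other 2 WT mice also lay above all CCL19-KI mice. *Saa2* was a DEG whichever mouse was left out, but not when only the 6 mice compared were fitted. *Saa1* was at 328, 12.2 and 4.62 in WT mice and at 2.79, 4.21 and 1.51 in CCL19-KI mice (log2 fold change -2.98), and it was no DEG without WT replicate 1 (-1.23) or without CCL19-KI replicate 3. *Saa3*, the form made by macrophages and adipocytes, was at 61.0, 4.05 and 5.84 in WT mice and at 9.17, 54.2 and 20.7 in CCL19-KI mice. Haptoglobin and orosomucoid, further acute phase products, showed no such pattern, with log2 fold changes of -0.09 for *Hp* and 0.26 for *Orm1*, and these 3 were looked at after the falls of *Saa1* and *Saa2* were seen. *Ltf*, which encodes lactoferrin, was at 0.150, 16.9 and 1.44 in WT mice, so that WT replicate 2, the library with the epididymis markers, had by far the highest value. Its log2 fold change was -1.80, and -0.66 without that mouse, when it was no DEG, as also without any single CCL19-KI mouse.

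Outside these groups, *Cdc42bpg*, *Ccl28* and *Rab4a* were lower whichever mouse was left out. *Cdc42bpg*, a kinase that acts downstream of CDC42, fell from 58.7, 55.4 and 51.9 to 29.6, 25.2 and 23.8 (log2 fold change -1.05, SE 0.36). *Ccl28*, an epithelial chemokine singled out after its values were seen, fell from a mean of 2.09 ± 0.544 in WT mice to 0.677 ± 0.0547 in CCL19-KI mice (SD, n = 3 each), with no overlap (log2 fold change -0.87, SE 0.18). At these low levels, *Ccl28* was no DEG with a pseudocount of 5. *Rab4a*, a GTPase of endosome recycling, fell from 25.9, 10.0 and 16.2 to 5.77, 8.16 and 7.65 (log2 fold change -1.08). *Mospd3* (log2 fold change -0.90) and *Stmn2* (-0.89), which encodes a regulator of microtubules in neurons, completed the 12 largest falls. Both were no DEG without WT replicate 1 (-0.53 and -0.72), and *Mospd3* lost its call in 3 and *Stmn2* in 4 of the 6 fits with a mouse left out. On the side of the 12 largest rises, the non-coding RNA *Gm45090* was at 5.48, 0 and 0.910 in WT mice and at 5.77, 8.89 and 6.34 in CCL19-KI mice (log2 fold change 1.77), and it was a DEG with WT replicate 1 left out but with no other mouse left out. *Nfkbia*, which encodes the inhibitor of NF-kB, was the 1 lower gene among 13 tested TNF, IL-1 and IL-6 genes, from 82.2, 59.1 and 48.2 to 33.2, 41.6 and 39.1 (log2 fold change -0.69), and it was no DEG without WT replicate 1 (-0.49).

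Genes of lipid-associated macrophages, the cells that take up lipid from dying adipocytes, gave few calls but mostly positive values. Of 18 tested, 17 had a positive log2 fold change, against 41.5% of all genes tested. In 7 all CCL19-KI mice lay above all WT mice, against 7.37% of all genes, and the median was 0.65, yet 2 passed the criteria, against 1.76% of all genes. *Mmp12*, the macrophage elastase, rose from 1.58, 2.77 and 4.09 normalized CPM to 18.0, 43.5 and 26.7 (log2 fold change 2.96, SE 1.07, unadjusted limma p = 0.0143, exact permutation p = 0.1). The other was *Lpl*. *Mmp12* was a DEG whichever mouse was left out, and it was also the 1 higher gene of 21 on matrix remodelling.

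Other members with large differences did not pass with limma. *Atp6v0d2*, a subunit of the lysosomal proton pump, was at 1.95, 2.45 and 2.50 in WT mice and at 7.59, 20.2 and 12.0 in CCL19-KI mice (log2 fold change 2.02, SE 1.08). *Gpnmb*, a membrane glycoprotein of these macrophages, was at 5.78, 28.3 and 25.4 in WT mice and at 42.0, 63.1 and 48.9 in CCL19-KI mice (log2 fold change 1.57, SE 1.03). *Spp1*, which encodes osteopontin, was at 2.78, 0.708 and 2.05 in WT mice and at 1.70, 10.6 and 10.0 in CCL19-KI mice, so that CCL19-KI replicate 1 lay within the WT range (log2 fold change 1.38, SE 0.74). *Trem2*, the receptor that defines these cells, had a log2 fold change of 0.29. With edgeR and DESeq2, *Atp6v0d2* and *Spp1* passed the DEG criteria and *Lpl* did not. *Spp1* also passed without CCL19-KI replicate 1 (2.07), and *Atp6v0d2* and *Gpnmb* passed when only the 6 mice compared were fitted. Without WT replicate 1 the median of the list was 0.38, and *Gpnmb* was at 0.89.

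General macrophage genes gave no call. Of 15 tested, 4 had a positive log2 fold change, and the median was -0.19. *Adgre1*, which encodes F4/80, was at 48.0, 72.0 and 58.2 in WT mice and at 77.1, 53.5 and 64.5 in CCL19-KI mice. *Cd68* had a log2 fold change of -0.17. *Timd4*, a marker of resident macrophages, was at 4.13, 6.44 and 5.53 in WT mice and at 3.65, 2.27 and 3.32 in CCL19-KI mice (log2 fold change -0.64, SE 0.32).

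The list of genes that the study names in eWAT was not chosen independently of these data. The study named these genes in ligatured mice, whereas the mice compared here carry no ligature label. Of its 12 tested genes, 3 were higher (*Ccl19*, *Srp54b* and *Cyp2b9*) and 0 lower, against 1.76% and 0.431% of all genes tested. *Cyp2b9*, a cytochrome P450, was at 2.48, 0.0644 and 1.21 in WT mice and at 0.668, 20.9 and 18.3 in CCL19-KI mice, so the groups overlapped (log2 fold change 2.14, SE 0.89). *Cyp2b9* was no DEG without WT replicate 2 (1.68), WT replicate 3 (2.21), CCL19-KI replicate 2 (1.49) or CCL19-KI replicate 3 (1.59). The inflammatory genes *Il1b* and *Ccl2* had log2 fold changes of -0.17 and -0.30 and did not pass, and *Tnf* was too low to be tested, between 0.122 and 0.502 normalized CPM. *Acot3*, *Kap*, *Onecut1* and *Cyp2a22*, genes of acyl-CoA hydrolysis, kidney androgen response, liver development and P450 metabolism, did not pass either.

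The remaining process lists gave no call, apart from the 1 gene each named above. This held for fatty acid synthesis (0 of 13), lipolysis and lipid droplets (0 of 15), fatty acid oxidation (0 of 17), thermogenesis (0 of 10), insulin signalling (0 of 14), adipocyte transcription factors (0 of 11), cholesterol synthesis (0 of 20), CC and CXC chemokines with their receptors (0 of 13 and 0 of 15), Toll-like receptors (0 of 14), MHC class II presentation (0 of 10), complement (0 of 16), collagens (0 of 17), lysosome (0 of 21), proliferation (0 of 16), circadian clock (0 of 17), unfolded protein response (0 of 17), oxidative phosphorylation (0 of 21) and the 8 tested neighbours of *Adipoq*. Their medians lay between -0.35 for fatty acid oxidation and 0.40 for collagens. Marker lists of dendritic cells (0 of 14), T and NK cells (0 of 15), B cells (0 of 15), progenitors and fibroblasts (0 of 15), mesothelium (0 of 13), smooth muscle (0 of 14) and adipocytes (0 of 14, median 0.42) also gave no call. The same held for markers of hepatocytes (0 of 18, median -0.21), kidney tubule (0 of 12), exocrine pancreas (0 of 10), epididymis (0 of 7), skeletal muscle (0 of 8), germ cells (0 of 8) and erythroid cells (0 of 7). In the list of neutrophils and mast cells 1 of 7 was lower, *Csf3r* (log2 fold change -0.80, and no DEG at -0.43 without WT replicate 1), and among neuron and Schwann cell genes 1 of 8, *Stmn2*.

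The genotype effect under a 40% HFD was set beside that in the other mice without ligature label and in ligatured mice, and the 3 differences tested below share the 6 mice described here. On the ND, 1740 genes were higher (10.3%) and 1771 lower (10.5%), and on the 60% HFD 1690 were higher (9.99%) and 1681 lower (9.93%), of 16923 each. Both counts rest on a library that goes against its label, and without these libraries 4122 and 3812 of 16451 genes were DEGs. In both comparisons the hepatocyte list moved with genotype. On the ND 15 of its 18 genes were higher, with a median of 7.72, and on the 60% HFD 17 of 18 were lower, with a median of -5.69. Without the 2 libraries these counts were 16 and 17. Under a 40% HFD that median was -0.21. The part of this in the diet differences was not tested.

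The difference of the genotype effect between the 40% HFD and the ND had an adjusted p below 0.05 in 4 genes of limma (0.0236%), and 2915 had an unadjusted p below 0.05. The count was 317 with edgeR, 1139 with DESeq2 and 441 in a fit of all 36 mice. It was 0 genes against the 60% HFD (0%), where 2613 had an unadjusted p below 0.05, edgeR gave 0 and DESeq2 1010. In the fit of 16 mice these numbers were 0 and 21. *Ccl19* had a log2 fold change of 1.33 on the ND and 1.23 on the 60% HFD with all libraries, and of 2.18 and 2.04 without the 2 libraries, beside 2.74 here. Its difference between the 40% HFD and the ND had adjusted p = 0.49 with all libraries and adjusted p = 0.585 without them.

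*Irf7* had a log2 fold change of 0.43 on the ND and of -0.55 on the 60% HFD. Its effect under the 40% HFD differed from that on the ND by -1.46 (adjusted p = 0.17 with limma), and by -1.59 in the fit of 16 mice (adjusted p = 0.0968). Over the interferon-stimulated list, the difference from the ND had an unadjusted p below 0.05 in 8 of 20 genes and a median of -0.78, and in 10 genes with a median of -0.94 in the fit of 16 mice. Of all 16923 genes, 2915 had such a p, and in the fit of 16 mice 3780 of 16451 had it. The difference from the 60% HFD had it in 1 of the 20 genes, with a median of -0.16. Of the 15 endothelial genes, 3 were higher and 0 lower on the ND (median -0.11), where 10.3% of all genes tested were higher. On the 60% HFD 0 were higher and 1 lower (median 0.30). The difference from the ND had an unadjusted p below 0.05 in 4 of the 15 (median 0.76), and that from the 60% HFD in 0 (median 0.17). Of all 16923 genes, 2915 and 2613 had such a p. In the fit of 16 mice the endothelial counts were 5 and 4 (medians 0.67 and 0.60), where 3780 and 2813 of all 16451 genes had such a p. Among genes higher under the 40% HFD, *Cldn5* was at -0.01 on the ND and 0.21 on the 60% HFD. *Gpihbp1* was at -0.18 and 0.21, and *Meox2* at -0.26 and -0.21, beside 1.45, 1.17 and 1.59 under the 40% HFD. The differences from the ND had adjusted p = 0.257, adjusted p = 0.191 and adjusted p = 0.172 with limma. Without the 2 libraries the values were 0.17 and -0.20 for *Cldn5*, -0.25 and -0.05 for *Gpihbp1* and -0.34 and -0.66 for *Meox2* on the ND and the 60% HFD, and the difference from the ND had adjusted p = 0.229, adjusted p = 0.137 and adjusted p = 0.0976.

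In ligatured mice fed the same diet, 72 of 16653 genes were higher (0.432%) and 188 lower (1.13%). The knock-in genes and their companions had like values there, with log2 fold changes of 3.22 for *Ccl19*, 5.93 for *Gm2564*, 4.06 for *Hist1h4m* and 2.50 for *Naip6*. *Cdc42bpg* and *Ccl28* were lower there as well (-0.95 and -0.98), and *Hist1h4n* was at -1.90. *Hist1h4m*, *Hist1h4n* and *Naip6* belong to the list that was picked on these ligatured mice. A difference of these genes there was thus set by that choice and adds no support. The endothelial, interferon and lipid uptake lists gave 0 calls in those mice, with medians of 0.06, -0.05 and -0.03.

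The difference between mice without and with ligature had an adjusted p below 0.05 in 0 of 17852 genes (0%) with limma, where 681 had an unadjusted p below 0.05, edgeR gave 0 and DESeq2 6. *Irf7* differed by -1.09, *Btnl9* by 1.82 and *Spaar* by 1.12, each with adjusted p = 1.00.

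**Figure D5:**
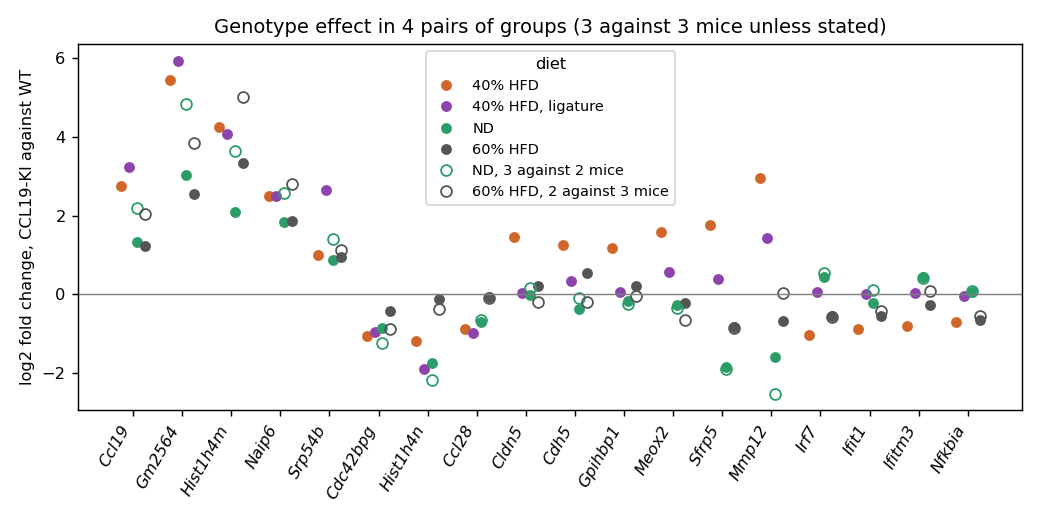
log2 fold change of CCL19-KI against WT for 18 genes in 4 pairs of groups, with filled points for all libraries and open points for the ND and 60% HFD values without the 2 libraries that go against their labels. *Ccl19*, *Gm2564*, *Hist1h4m* and *Naip6* are above 0 in every pair, but *Hist1h4m* and *Naip6* belong to a list picked on the ligatured mice. The endothelial genes *Cldn5*, *Cdh5* and *Meox2*, shown because they were DEGs under the 40% HFD without ligature, are highest there.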

How the data were processed

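RNA of eWAT was isolated with TRIzol and a PureLink kit per the labels, or with a PureLink kit per the methods, depleted of ribosomal RNA and made into directional libraries. According to the submitters' processing notes and the methods, the authors trimmed reads with Trimmomatic 0.38, counted them on transcripts with RSEM 1.3.0 and Bowtie2, and normalized with edgeR. The methods name mm10 and the notes name GRCm39, so coordinates here are those of GENCODE M21 (GRCm38), which held 24634 of the 24750 gene IDs. The deposited table holds a normalized signal per gene and mouse, taken as normalized CPM, because in each library all values were whole multiples (tolerance 0.01) of the value of 1 read. The whole reads recovered in this way gave the depths and the count tests.

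Genes that reached 1 normalized CPM in 3 or more libraries of the 18 mice without ligature label were fitted on log2(normalized CPM + 1) with limma 3.58.1 (lmFit, eBayes with trend) in R 4.3.3, with a term for each of the 6 groups and Benjamini-Hochberg adjustment over all genes tested. Ligatured mice on the 40% HFD were fitted among the 18 ligatured mice, and the difference between ligatured and other mice among all 36. DEGs met p of 0.05 or less with a ratio of 1.5 or more, or of 0.67 or less. Alternatives were edgeR 4.0.16 and DESeq2 1.42.0 on the recovered reads, other pseudocounts, filters, scalings, fits and samples. The fits were first tested on simulated data. Replicates of these 6 mice differed by more than sampling noise (chi-square per degree of freedom 42.4 to 249 within genotypes), so each counted as 1 mouse. Between genotypes it was 29.5 to 301, so the most alike libraries were of different genotypes.

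Named genes are *Ccl19* and its copies, *Adipoq*, the members of 47 gene lists, the genes the study names, the 12 largest rises and falls among DEGs with a mean of at least 5 normalized CPM in the higher group and no overlap between genotypes, and up to 5 genes for each difference of effects with an adjusted p below 0.05. Genes named outside this rule are said to be chosen after their values were seen. The members and lists were chosen with earlier results of these data known. The result of 1 member of the interferon list is not reported here.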

Additional observations from a re-analysis of the deposited data

Results flagged for a closer look

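In 4 genes the genotype effect under the 40% HFD differed from that on the ND with an adjusted p of limma below 0.05. The difference of the log2 fold changes, 40% HFD minus ND, was 2.51 for *Muc5ac* (adjusted p = 0.00255), 2.74 for *Reg3g* (adjusted p = 0.0164), -10.57 for *Mup7* (adjusted p = 0.0336) and 4.71 for *Bpifa1* (adjusted p = 0.0336).

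*Muc5ac*, a mucin of airway and stomach lining, *Reg3g*, a lectin of gut epithelium, and *Bpifa1*, a secreted protein of airway lining, were at or near 0 in all 6 libraries of the 40% HFD. They were found in the libraries labelled ND WT, with 6.91, 3.23 and 4.55 normalized CPM of *Muc5ac* in replicates 1, 2 and 3, so these differences come from the ND mice. *Mup7*, a urinary protein that liver makes, was at 4931, 1965 and 7196 in WT mice and at 1093, 3623 and 2627 in CCL19-KI mice of the 40% HFD, which overlapped. On the ND it was at 0.163, 0.111 and 0 in libraries labelled WT and at 84.2, 1358 and 5886 in CCL19-KI mice, where the hepatocyte list was higher too. Without the 2 libraries that go against their labels, *Mup7* had an adjusted p of 0.0968 and the other 3 were below the filter on low values, so that 0 genes passed.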

How the results depend on the processing

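The count of 371 DEGs became 116 with a pseudocount of 5, 171 with a mean of at least 5 normalized CPM, 604 with edgeR, 720 with DESeq2 and 72 with a ratio of 2, and it ranged from 283 to 858 when each mouse was left out in turn. The highest counts came when WT replicate 2 (858, of which 528 were lower) or WT replicate 3 (557) was left out. The cause was not tested. The count of 0 genes with an adjusted p below 0.05 became 37 with DESeq2, 6 with only the groups compared, 1 with all 36 mice and 6 without the 2 libraries that go against their labels, an alternative added after seeing the data. Of the 37 of DESeq2, 21 were not DEGs of limma, and all 21 were lower. Among these 21 were *Lcn5* and *Cst8* of the epididymis list, each with a DESeq2 log2 fold change of -18.0. That estimate is made on reads without the added 1, so its size cannot be set beside the limma values. That list summed to 1918 normalized CPM in WT replicate 2 and to at most 3.98 in the other libraries compared. The part of that library in these calls was not tested. The 4 genes whose effect differed between the 40% HFD and the ND became 12 and 1 with pseudocounts of 0.1 and 5, 2 without a filter, 0 with a mean of at least 5, 317 with edgeR, 1139 with DESeq2, 0 with only the groups compared, 441 with all 36 mice, 0 without the 2 libraries, and 1 to 3 with a mouse left out. Against the 60% HFD, 0 became 1 without a filter, 1010 with DESeq2, 3 with only the groups compared, 84 with all 36 mice and 21 without the 2 libraries. Against ligatured mice, 0 became 6 with DESeq2 and 1 without CCL19-KI replicate 3. Other scalings moved the median of all genes by under 0.1 (log2). *Ccl19* kept its direction and call in every alternative, with log2 fold changes from 1.78 to 3.25. Of the 71 gene values followed, reversals occurred when a mouse was left out for *Acot3* (from -1.65 to 0.56, the highest without WT replicate 1), *Il1b* (from -0.39 to 0.21, the highest again without WT replicate 1) and *Kap* (from -0.62 to 2.35, with -0.53 when WT replicate 2 and -0.62 when CCL19-KI replicate 2 was left out), and none of these was a DEG. The ratio of 2 was applied to the count of DEGs only. Of 756 gene values under the other alternatives that kept all 6 mice, 690 kept direction and call, 60 lost the call and 6 gained it. Of 426 with a mouse left out, 315 kept both, 105 lost the call and 2 gained it.

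The replicate numbers are shared between genotypes but nothing ties same-numbered mice to each other. Their deviations from the group means correlated at -0.544, -0.611 and 0.0566, so the numbers were not taken as pairs. With a replicate block there were 384 DEGs, 349 of them among the 371, and 0 genes with an adjusted p below 0.05.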
